A study of Mus musculus with 10 samples.

Results

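The genes described here encode the protein parts of the spliceosome and the RNA-binding proteins that steer it, measured by RNA sequencing in testes of mice at postnatal day 10. They are the protein-coding genes of the deposited count table whose names begin with Snrp, Lsm and a digit, Srsf, Sf3a, Sf3b, Prpf or Hnrnp, which gave 77 of the 30719 genes in the table; 1 further gene with a Snrp name was not analysed here. Wild-type (WT) mice were compared with FXR-/- mice, which lack FXRα, the bile acid receptor encoded by Nr1h4. Each genotype had 5 libraries, numbered 3, 4, 5, 6 and 9 in WT and 8 to 12 in FXR-/-, and per the series' design text each came from an individual mouse and all were run on the same flowcell. All mice shared a mixed background for which the labels give 50% 129sv and 50% C57Bl, with a number after C57Bl that runs from 6 to 15 across the samples. Neither the deleted part of Nr1h4 nor the relation between the mice is stated in the labels. The sample is the whole testis, so a value is a sum over germ cells, Sertoli cells and interstitial cells, and fewer cells of a type and less RNA per cell cannot be told apart.

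Introns are removed by the spliceosome, which is built from small nuclear RNAs (U1, U2, U4, U5 and U6) and proteins. A ring of Sm proteins closes around U1, U2, U4 and U5, and a related ring of Lsm proteins holds the 3′ end of U6. These rings are the core of the particles. The SF3A and SF3B complexes are parts of U2 that seat it on the branch point, and many PRPF proteins belong to the U4/U6.U5 particle or help to activate it. SR proteins (Srsf genes) bind exons and mostly favour their inclusion, while hnRNP proteins coat the transcript and often oppose it. The testis is known for unusually rich alternative splicing, and at the age studied the tubules contain Sertoli cells that are not yet mature, spermatogonia and germ cells that have just entered meiosis.

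In FXR-/- testes, the mRNAs of 7 of the 14 Sm and Lsm ring proteins were higher, while the SR and hnRNP genes were called about as often as other genes (9.68% of 31, near the background given next). Of the 77 genes, all of which passed the filter on low counts, 12 rose and 1 fell at an adjusted p under 0.05 by edgeR's quasi-likelihood test, and 64 did not pass. The 13 calls are 16.9% of the genes, against 13.9% of all 18559 genes tested. The 12 rises are 15.6% of the genes against a background of 6.17%, and the 1 fall is 1.30% against 7.71%. All changes were small. The largest was a rise of 36.2% in Snrpb2 and the next a rise of 23.2% in Snrpd2, and Hnrnpul1 fell by 9.41%. Over all 77 genes the median log2 fold change (FXR-/- over WT) was 0.01, as it was over all genes tested, and 44 of 77 fitted changes lay above 0. The values of the groups did not overlap in 5 genes, which is 6.49%, against 11.6% of all genes tested. Of these, 4 were higher in FXR-/- (background 5.12%) and 1 lower (background 6.44%).

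**Figure D1:**
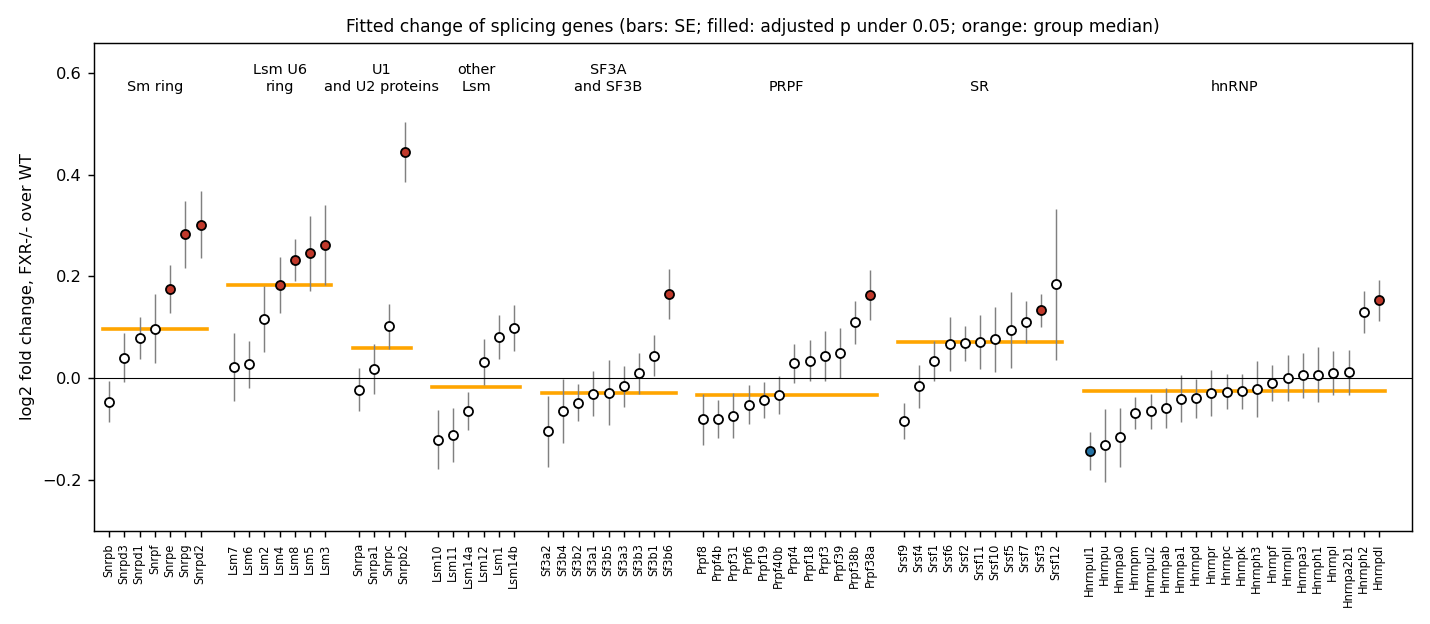
Fitted log2 fold change (FXR-/- over WT) of 76 of the 77 genes, with bars of 1 SE, grouped by role; filled points had an adjusted p under 0.05 and orange lines are medians of the whole groups. The Sm ring (median 0.10) and the Lsm ring of U6 (median 0.18) lie higher than the hnRNP genes (median -0.03), and Snrpb2 at 0.45 is the highest point.

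Depth was 32330029 to 39655170 counts per library. The 77 genes took 1.63% to 1.68% of all counts in WT and 1.66% to 1.76% in FXR-/-, ranges that overlap. Nr1h4 held 15, 15, 13, 14 and 26 counts in WT libraries 3, 4, 5, 6 and 9 and 8, 9, 11, 11 and 13 counts in FXR-/- libraries 8 to 12. Its log2 fold change was -0.84 (SE 0.234, edgeR adjusted p = 0.0347), at a depth too low to say much about the labels. Levels below are counts scaled to a common total (CPM) on libraries scaled with trimmed-mean factors, and the libraries are always listed in the order just given.

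The Sm ring has 7 protein subunits. Of these 7, 3 rose (42.9%, against 6.17% of all genes tested), none fell (background 7.71%), and the median log2 fold change was 0.10. Snrpd2, the SmD2 subunit, measured 92.7, 94.4, 102, 114 and 105 CPM in WT and 138, 121, 113, 127 and 127 CPM in FXR-/-. FXR-/- library 10 lay just under WT library 6, and every other FXR-/- value was above all WT values. The mean went from 102 ± 8.49 to 125 ± 9.37 CPM (SD, n = 5 each), a log2 fold change of 0.30 (SE 0.0658, edgeR adjusted p = 0.0120). Snrpd2 lies on chromosome 7, 19149722 to 19153542, plus strand (GRCm38, as are all positions here).

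Snrpg and Snrpe, the SmG and SmE subunits, are neighbours in the assembled ring. Snrpg held 36.9, 33.7, 39.0, 38.3 and 43.7 CPM in WT and 47.3, 44.6, 43.7, 48.5 and 48.9 CPM in FXR-/-, with WT library 9 and FXR-/- library 10 at almost the same value and no other overlap. Its mean rose from 38.3 ± 3.65 to 46.6 ± 2.30 CPM (SD, n = 5 each; log2 fold change 0.28, SE 0.0655, edgeR adjusted p = 0.0159). Snrpg on chromosome 6 (86371304 to 86379328, plus strand) has a near-identical copy, Gm8186, whose counts came to 33.8% of its own, so the split of reads between them is uncertain. Gm8186 itself went from 12.9 ± 1.34 to 15.8 ± 1.03 CPM (SD, n = 5 each), a log2 fold change of 0.28 (edgeR adjusted p = 0.0378, kept in 3 of 10 cases when 1 library was left out). In the set, 20 genes had a copy of at least 97% identity over at least 75 bases. Snrpg was the only one of these whose copies with a row in the count table held over 5% of its counts. The 1 copy of Snrpd2 and the 2 copies of Snrpc had no row, so their counts are not known.

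Snrpe (chromosome 1, 133603871 to 133610291, minus strand) gave 69.0, 68.5, 75.9, 72.4 and 77.3 CPM in WT and 82.9, 80.0, 77.3, 85.3 and 84.8 CPM in FXR-/-. WT library 9 and FXR-/- library 10 again met, and the mean moved from 72.6 ± 3.97 to 82.0 ± 3.38 CPM (SD, n = 5 each; log2 fold change 0.18, SE 0.0470, edgeR adjusted p = 0.0294). The other ring subunits did not pass. Snrpd1, Snrpd3 and Snrpf had fitted log2 fold changes of 0.08, 0.04 and 0.10 with adjusted p-values of 0.232, 0.622 and 0.373. Snrpb, which had the highest level per kilobase in the ring (104 CPM per kilobase of exon), had one of -0.05 (adjusted p = 0.486).

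The promoters of the Sm genes that rose are shown because these genes rose together. They come from RefSeq (GRCm38.p6), which held a promoter for 66 of the 77 genes, and cover 150 bases before to 30 after the start, 5′ to 3′ on the gene's strand. Capitals mark matches on either strand to the motifs spelled out further on, such as the ETS motif CCGGAAG and the GC box GGGCGG. The stretches are chr7:19149688-19149867 (plus strand) for Snrpd2, chr1:133610251-133610430 (minus strand) for Snrpe and chr6:86371390-86371569 (plus strand) for Snrpg.
Snrpd2: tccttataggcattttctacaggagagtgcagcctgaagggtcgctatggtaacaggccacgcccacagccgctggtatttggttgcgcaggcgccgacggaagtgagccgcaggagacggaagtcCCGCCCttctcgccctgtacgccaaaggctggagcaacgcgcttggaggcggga
Snrpe: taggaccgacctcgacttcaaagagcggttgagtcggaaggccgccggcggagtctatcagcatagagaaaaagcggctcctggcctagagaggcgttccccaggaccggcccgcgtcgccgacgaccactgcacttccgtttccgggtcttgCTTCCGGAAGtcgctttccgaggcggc
Snrpg: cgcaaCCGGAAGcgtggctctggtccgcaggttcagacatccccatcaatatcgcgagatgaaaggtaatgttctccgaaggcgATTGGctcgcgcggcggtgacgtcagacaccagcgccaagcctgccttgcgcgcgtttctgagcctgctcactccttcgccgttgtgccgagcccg

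Proteins specific to U1 and U2 were measured by 4 genes, of which 1 rose (25%, background 6.17%) and none fell (background 7.71%). Snrpb2, which encodes the U2 protein B″ that binds a stem-loop of U2 RNA, measured 46.6, 54.3, 50.5, 56.3 and 51.4 CPM in WT. In FXR-/- it measured 64.6, 67.7, 70.6, 74.8 and 75.01 CPM, and the lowest of these values lay above the highest in WT. The mean rose from 51.8 ± 3.71 to 70.5 ± 4.50 CPM (SD, n = 5 each), a log2 fold change of 0.45 (SE 0.0593, edgeR adjusted p = 0.000789), the largest among the 77 genes. Snrpa1, the U2 protein A′ that binds U2 RNA together with B″, went from 51.5 ± 3.46 to 52.2 ± 1.53 CPM (log2 fold change 0.02, SE 0.05004, edgeR adjusted p = 0.846). Snrpa, the U1 relative of Snrpb2, had a log2 fold change of -0.02 (adjusted p = 0.756), and Snrpc, the U1 protein that helps to recognise the 5′ splice site, one of 0.10 (adjusted p = 0.143). The difference between Snrpb2 and these partners was not tested. The promoter of Snrpb2, at chr2:143062919-143063098 (plus strand), is given because it belongs to the gene that moved most, and it holds matches to the ETS motif and the GC box. The bases just after its listed start were not found as 1 unbroken stretch in any GENCODE M21 transcript of Snrpb2. Start positions themselves were not compared.
Snrpb2: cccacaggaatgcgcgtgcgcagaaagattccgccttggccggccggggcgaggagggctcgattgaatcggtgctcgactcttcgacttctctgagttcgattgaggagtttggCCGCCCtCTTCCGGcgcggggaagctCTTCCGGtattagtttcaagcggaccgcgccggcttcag

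The ring on U6 is made of Lsm2 to Lsm8. Of these 7 genes 4 rose (57.1%, background 6.17%) while none fell (background 7.71%). All 7 fitted changes were above 0, with a median of 0.18. Lsm8, the subunit that sets this nuclear ring apart from the cytoplasmic Lsm1 ring, measured 58.8, 60.0, 64.8, 61.7 and 65.3 CPM in WT and 73.3, 70.3, 72.2, 74.7 and 74.3 CPM in FXR-/-. The groups did not overlap. The mean rose from 62.1 ± 2.86 to 73.0 ± 1.78 CPM (SD, n = 5 each; log2 fold change 0.23, SE 0.0409, edgeR adjusted p = 0.00442). Lsm1, which takes the place of Lsm8 in the ring that promotes mRNA decapping and decay, went from 37.9 ± 1.60 to 40.1 ± 0.955 CPM (log2 fold change 0.08, edgeR adjusted p = 0.231). Lsm8 spans 18848579 to 18855751 on the plus strand of chromosome 6.

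Lsm3, a subunit common to both rings, held 48.8, 50.3, 57.6, 60.6 and 62.0 CPM in WT and 66.4, 64.2, 60.4, 68.3 and 75.6 CPM in FXR-/-. FXR-/- library 10 lay below WT libraries 6 and 9. Its mean went from 55.9 ± 6.01 to 67.0 ± 5.65 CPM (SD, n = 5 each; log2 fold change 0.26, SE 0.0783, edgeR adjusted p = 0.0446). Lsm5, also common to both rings, gave 18.9, 20.6, 20.1, 19.7 and 21.7 CPM in WT and 20.5, 22.9, 24.0, 25.0 and 27.1 CPM in FXR-/-. FXR-/- library 8 fell within the WT range, and the other FXR-/- values lay above it. Lsm5 rose from 20.2 ± 1.02 to 23.9 ± 2.44 CPM (SD, n = 5 each; log2 fold change 0.25, SE 0.0734, edgeR adjusted p = 0.0449).

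Lsm4 measured 53.8, 58.4, 59.2, 65.4 and 62.6 CPM in WT and 71.8, 69.6, 63.5, 66.9 and 68.3 CPM in FXR-/-, where library 10 lay below WT library 6. The mean rose from 59.9 ± 4.43 to 68.0 ± 3.08 CPM (SD, n = 5 each; log2 fold change 0.18, SE 0.0550, edgeR adjusted p = 0.0453). Lsm3, Lsm5 and Lsm4 kept their calls in only 3, 1 and 2 of 10 cases when 1 library was left out. Lsm2, Lsm6 and Lsm7 did not pass, with log2 fold changes of 0.12, 0.03 and 0.02 and adjusted p-values of 0.258, 0.745 and 0.860. Lsm3 (91515928 to 91522625, plus strand) and Lsm5 (56701063 to 56704710, minus strand) both lie on chromosome 6, with Lsm8 and Snrpg, and Lsm4 lies on chromosome 8 (70673248 to 70678752, plus strand).

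The promoters of Lsm3, Lsm5 and Lsm8, cut from RefSeq in the same way, cover chr6:91515885-91516064 (plus strand), chr6:56704670-56704849 (minus strand) and chr6:18848485-18848664 (plus strand). They are shown beside those of the Sm genes to let the windows be compared; each holds a GC box match, and Lsm5 also holds an ETS and a CCAAT match.
Lsm3: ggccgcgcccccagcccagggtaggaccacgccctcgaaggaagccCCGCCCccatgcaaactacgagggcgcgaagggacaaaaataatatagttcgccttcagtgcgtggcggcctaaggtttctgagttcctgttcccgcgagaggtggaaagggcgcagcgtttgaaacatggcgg
Lsm5: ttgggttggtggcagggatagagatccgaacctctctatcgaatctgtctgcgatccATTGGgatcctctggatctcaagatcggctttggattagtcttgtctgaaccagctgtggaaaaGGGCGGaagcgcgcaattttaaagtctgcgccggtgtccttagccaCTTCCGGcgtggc
Lsm8: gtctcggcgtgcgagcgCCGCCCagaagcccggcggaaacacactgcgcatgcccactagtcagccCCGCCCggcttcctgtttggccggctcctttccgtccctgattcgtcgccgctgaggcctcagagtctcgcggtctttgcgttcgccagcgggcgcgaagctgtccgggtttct

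Outside the U6 ring 0 of 6 Lsm genes passed by edgeR, against 13.9% of all genes tested, and 0 passed by DESeq2. Of these 6 genes 1 had an unadjusted edgeR p under 0.05, and their median log2 fold change was -0.02. The most abundant by CPM were Lsm14a and Lsm14b, whose proteins repress translation in cytoplasmic granules. Lsm14a held 162, 163, 170.4, 174 and 161 CPM in WT and 159.5, 152, 166, 159 and 158 CPM in FXR-/-, overlapping ranges (log2 fold change -0.07, SE 0.0376, edgeR adjusted p = 0.269). Lsm14b held 118, 123, 138, 134 and 131 CPM in WT and 138, 140.0, 135, 138 and 139 CPM in FXR-/-, and WT libraries 3 and 4 were the lowest (log2 fold change 0.10, SE 0.0452, edgeR adjusted p = 0.163). Lsm10 and Lsm11, the subunits specific to the U7 particle that processes histone mRNA, had the lowest fitted values of this group, -0.12 and -0.11, with adjusted p-values of 0.185 and 0.178. Lsm12 had a log2 fold change of 0.03 (adjusted p = 0.690).

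**Figure D2:**
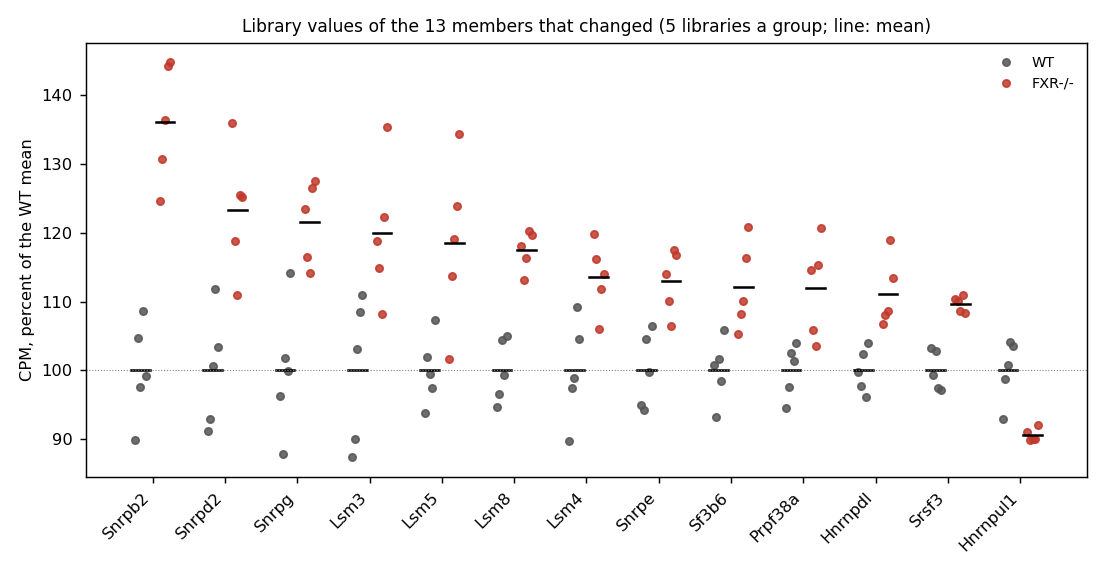
Level of each of the 13 genes that passed the test in every library, as a percent of the gene's WT mean (grey, WT; red, FXR-/-; 5 libraries a group; black lines, means). The groups are fully apart in Snrpb2, Lsm8, Srsf3, Hnrnpdl and Hnrnpul1, and Hnrnpul1 is the gene that lies below its WT mean in FXR-/-.

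The SF3A and SF3B subunits and the PRPF proteins were close to the WT level. Of 9 SF3A and SF3B genes 1 rose (11.1%), with a median of -0.03, and of 13 PRPF genes 1 rose (7.69%), with a median of -0.03. The background of rises was 6.17%. Sf3b6, the small SF3B subunit that contacts the branch point adenosine, gave 52.9, 48.9, 53.4, 51.7 and 55.6 CPM in WT and 55.3, 56.8, 57.9, 61.1 and 63.4 CPM in FXR-/-. FXR-/- library 8 lay just under WT library 9, and the mean went from 52.5 ± 2.46 to 58.9 ± 3.31 CPM (SD, n = 5 each; log2 fold change 0.17, SE 0.0493, edgeR adjusted p = 0.0440). Sf3b1, the largest SF3B subunit and a frequent target of mutation in blood cancers, held 605 ± 13.1 CPM in WT and 624 ± 30.03 CPM in FXR-/- (log2 fold change 0.04, edgeR adjusted p = 0.502). The other 7 genes had log2 fold changes from -0.10 (Sf3a2) to 0.01 (Sf3b3).

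Prpf38a, which joins the spliceosome around its activation, measured 55.6, 57.4, 60.3, 59.6 and 61.1 CPM in WT and 67.4, 62.2, 60.9, 67.8 and 71.0 CPM in FXR-/-. FXR-/- library 10 lay just below WT library 9, and the mean rose from 58.8 ± 2.27 to 65.8 ± 4.20 CPM (SD, n = 5 each; log2 fold change 0.16, SE 0.0498, edgeR adjusted p = 0.0483). Prpf38b, its relative, had a log2 fold change of 0.11 (adjusted p = 0.108). The catalytic centre protein Prpf8 had one of -0.08 (SE 0.0497, adjusted p = 0.299), the lowest of the group together with the kinase Prpf4b at -0.08 (adjusted p = 0.171). Sf3b6 lies on chromosome 12 (4817544 to 4827659, plus strand) and Prpf38a on chromosome 4 (108563172 to 108579336, minus strand).

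Among the 11 SR genes 1 rose (9.09%, background 6.17%) and none fell (background 7.71%). Of the 11 fitted changes 9 were above 0, with a median of 0.07. Srsf3, the smallest SR protein, which also acts in mRNA export, measured 319, 307, 318, 301 and 300.2 CPM in WT and 341, 340.1, 336, 343 and 335 CPM in FXR-/-. The groups did not overlap, and the FXR-/- values were tightly grouped. The mean went from 309 ± 9.12 to 339 ± 3.49 CPM (SD, n = 5 each; log2 fold change 0.13, SE 0.0328, edgeR adjusted p = 0.0214). Srsf7, its closest relative in the family, had a log2 fold change of 0.11 (SE 0.0420, adjusted p = 0.101), and the general factors Srsf1 and Srsf2 had ones of 0.03 and 0.07 (adjusted p-values 0.615 and 0.200). Srsf12 had the highest fitted value of the group, 0.19, but also the largest error (SE 0.149, adjusted p = 0.440) at a level of 2.80 ± 0.472 CPM in WT, the lowest of the 77 genes. Srsf3 lies on chromosome 17, 29032628 to 29043373, plus strand.

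The 20 hnRNP genes held 1 rise (5%, background 6.17%) and 1 fall (5%, background 7.71%), with a median of -0.03 and 7 of 20 fitted changes above 0. Hnrnpdl, the hnRNP D-like protein that binds AU-rich sequences, measured 353, 346, 362, 340.1 and 368 CPM in WT and 378, 382, 384, 421 and 401 CPM in FXR-/-, with no overlap. Its mean rose from 354 ± 11.4 to 393 ± 17.8 CPM (SD, n = 5 each; log2 fold change 0.15, SE 0.0407, edgeR adjusted p = 0.0291). Hnrnpd, its relative, had a log2 fold change of -0.04 (adjusted p = 0.529). Hnrnpul1, an hnRNP U-like protein also known for a role in DNA break repair, held 297, 315, 322, 332 and 330.4 CPM in WT and 290.5, 287, 288, 287 and 294 CPM in FXR-/-. All FXR-/- values were below all WT values, with WT library 3 the nearest. The mean fell from 319 ± 14.3 to 289 ± 2.92 CPM (SD, n = 5 each; log2 fold change -0.14, SE 0.0374, edgeR adjusted p = 0.0276). The fall in Hnrnpul1 did not pass with library totals as the only scaling (adjusted p = 0.0881).

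Hnrnpu, a nuclear scaffold protein and relative of Hnrnpul1, had the second lowest fitted change of all 77 genes but overlapping groups, with 266, 254, 245, 283 and 300.2 CPM in WT and 210.5, 246, 242, 268 and 263 CPM in FXR-/- (log2 fold change -0.13, SE 0.0717, edgeR adjusted p = 0.241). Hnrnph2 came nearest to the threshold of the genes that did not pass (log2 fold change 0.13, SE 0.0418, adjusted p = 0.0592), while Hnrnph1 and Hnrnph3 had log2 fold changes of 0.01 and -0.02. The abundant proteins Hnrnpa2b1, Hnrnph1 and Hnrnpk measured 1527 ± 76.7, 916 ± 39.6 and 763 ± 13.8 CPM in WT and 1539 ± 54.6, 921 ± 67.0 and 749.6 ± 21.4 CPM in FXR-/- (SD, n = 5 each). Their log2 fold changes ran from -0.03 to 0.01. Hnrnpdl lies on chromosome 5 (100033577 to 100039664, minus strand) and Hnrnpul1 on chromosome 7 (25721165 to 25754757, minus strand). The promoter of Hnrnpul1, from RefSeq at chr7:25754730-25754909 (minus strand), is given as the promoter of the gene that fell. It holds a YY1 match and CCAAT matches, and neither an ETS nor a GC box match in the stretch shown.
Hnrnpul1: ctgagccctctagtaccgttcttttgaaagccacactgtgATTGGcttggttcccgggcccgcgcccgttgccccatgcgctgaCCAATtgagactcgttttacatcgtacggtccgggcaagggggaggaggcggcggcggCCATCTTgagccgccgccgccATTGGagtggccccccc

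Set side by side, the Sm and Lsm rings (14 genes) had 7 rises (50%, background 6.17%) and no fall (background 7.71%). Of their fitted changes 13 of 14 lay above 0, with a median of 0.15. Gene by gene, the genotypes did not overlap in only 1 of the 14 (Lsm8), which is 7.14%, against 11.6% of all genes tested. The SR and hnRNP genes (31 genes) had 2 rises (6.45%) and 1 fall (3.23%), and the genotypes did not overlap in 3 (9.68%). Of their fitted changes 16 of 31 lay above 0, with a median of 8.1e-05, and the median over all genes tested was 0.01. By library, the mean log2 CPM of the 14 ring genes was 5.55, 5.57, 5.67, 5.70 and 5.73 in WT and 5.83, 5.75, 5.74, 5.80 and 5.83 in FXR-/-. These list means did not overlap, but WT library 9 and FXR-/- library 10 were close, and WT libraries 3 and 4 were the lowest. For the SR and hnRNP genes the same mean was 8.08, 8.02, 8.06, 8.01 and 8.03 in WT and 8.03, 8.00, 8.07, 8.09 and 8.04 in FXR-/-, and the groups overlapped. The difference between the means of the 2 lists within a library was -2.39 ± 0.0956 in WT and -2.26 ± 0.0550 in FXR-/- (SD, n = 5 each), with FXR-/- library 10 (-2.33) below WT libraries 6 and 9 (-2.30 each). No p-value was computed for these lists, since their members were chosen with earlier results known. With all 24 Snrp and Lsm genes in place of the rings, 8 rose, none fell and the median was 0.09.

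**Figure D3:**
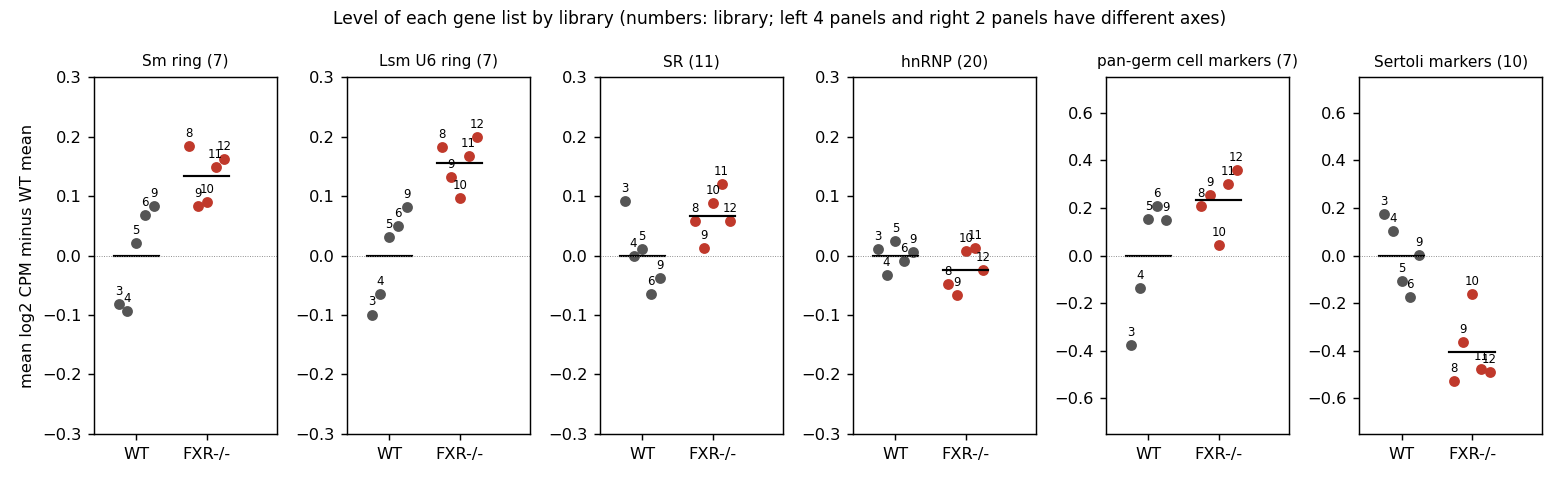
Mean log2 CPM of 4 lists of splicing genes, of germ cell markers and of Sertoli cell markers in each library, relative to the mean over WT libraries (numbers, libraries; lines, group means; the marker panels have a wider axis). The Sm and Lsm rings lie higher in FXR-/- (differences of 0.13 and 0.16), SR and hnRNP genes differ by 0.07 and -0.02, germ cell markers lie higher by 0.23 and Sertoli markers lower by 0.40, and WT library 3 is lowest in the germ cell list and among the lowest for both rings.

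Cell type markers also differed between the libraries. Beside the counts of calls given here, 6.17% of all genes tested were higher and 7.71% lower. Germ cell markers (7 genes such as Ddx4 and Dazl) summed to 851 to 1250.2 CPM in WT and 1176 to 1467 CPM in FXR-/-. Of these, 2 of 7 rose (Mael and Asz1), and Ddx4 and Dazl were among those not called. Meiotic prophase markers summed to 681 to 1609 CPM and 1055 to 1771 CPM, with 0 of 15 called, and spermatogonial markers to 996 to 1271 CPM and 1036 to 1314 CPM, with 2 of 10 higher. Sertoli markers (10 genes such as Sox9 and Clu) summed to 4888 to 5883 CPM in WT and 3261 to 4665 CPM in FXR-/-, and 7 of 10 fell. Markers of duct epithelium summed to 76.5 to 97.6 CPM and 125 to 182 CPM (7 of 8 higher) and those of adipocytes to 47.7 to 191 CPM and 198 to 1229.7 CPM (7 of 8 higher). In the order of libraries, the mean log2 CPM of the germ cell list was 6.29, 6.53, 6.82, 6.88 and 6.81 in WT and 6.87, 6.92, 6.71, 6.97 and 7.02 in FXR-/-, with WT libraries 3 and 4 low here as they were for the rings. Of the lists for Leydig cells (6 genes), macrophages (6), endothelium (5) and peritubular myoid cells (5), 1 Leydig gene fell and edgeR called no other gene, while DESeq2 called 2 endothelial genes. Each listed marker of every cell type had reads in all libraries. The part of these cell types in the changes of the splicing genes was not tested.

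Per kilobase of exon, the ring genes were expressed at a lower level than the SR and hnRNP genes. The median over both groups was 25.6 CPM per kilobase for the rings, 70.3 for the SR genes and 69.9 for the hnRNP genes. The highest level per kilobase was that of Hnrnpa2b1 (233) and the lowest that of Srsf12 (0.952). The spread between mice was small. The median coefficient of variation of the 77 genes was 4.23% in WT and 4.12% in FXR-/-, against 9.55% and 9.73% over all genes tested, whose median level was 19.3 CPM against 133 CPM for the set.

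Ring genes are short, with a median of 2014 bases of exon against 5396 for the SR and hnRNP genes and 3842 over all genes tested, and the share of calls is therefore given by exon length. Among tested protein-coding genes with a mean over 5 CPM, those with up to 1000 bases of exon were higher in 12.5% and lower in 3.26% of 184 cases, and those with over 4000 bases were higher in 4.52% and lower in 11.1% of 7194. Between these classes, genes of 1000 to 2000 bases were higher in 6.62% and lower in 9.13%, and genes of 2000 to 4000 bases in 5.72% and 9.74%. Ring genes rose in 1 of 2, 3 of 5, 2 of 5 and 1 of 2 cases in the classes from shortest to longest, and SR and hnRNP genes in 0 of 1, 0 of 10 and 2 of 20 cases in the classes over 1000 bases. The floor of 5 CPM was not applied to the ring, SR and hnRNP genes, and Srsf12 lay below it. The part of gene length in the counts of rises was not tested.

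Exons of 27 of the 77 genes overlap those of another gene, and no source used here describes the libraries as stranded, so such reads cannot be assigned with certainty. For Sf3a2, Prpf39 and Snrpd3 the overlapping genes (Plekhj1, Fkbp3 and Gucd1) held counts equal to 61.4%, 61.3% and 58.7% of their own, and none of these 3 genes passed the test. Nr1h4 shares chromosome 10 with 6 of the genes. The nearest, Snrpf, lies 4.05 Mb away, and none of the 6 (Snrpf, Lsm7, Sf3a2, Snrpd3, Hnrnph3 and Sf3b5) passed the test.

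Short motifs were counted on both strands in the 300 bases around each start, from 250 before to 50 after, in RefSeq windows. A gene was counted if any of its windows held the motif. The share of all windows is per single window and over all genes with one, so it is not a like measure to the shares of genes. The ETS motif CCGGAAG was in 21 of 66 genes of the set (31.8%), against 16.9% of the tested genes with a window and 8.86% of all windows. Among genes that rose and had a window it was in 5 of 11, namely Snrpb2, Snrpe, Snrpg, Lsm5 and Sf3b6, and among ring genes in 3 of 11. In Snrpe, matches on the opposite strands overlap each other. The GC box GGGCGG was in 72.7% of the set, 63.6% of tested genes and 35.7% of all windows, and in 8 of the 11 genes that rose. The CCAAT box CCAAT was in 50% of the set, 42.1% of tested genes and 37.4% of all windows, and in 4 of the 11 genes that rose. Among ring genes the GC box was in 8 of 11 and the CCAAT box in 6 of 11. Of 29 SR and hnRNP genes with a window, 6 held the ETS motif, 24 the GC box and 17 the CCAAT box.

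Other motifs were rarer. The YY1 motif AAGATGG was in 4 of 66 genes (6.06%, against 7.78% of tested genes and 6.34% of all windows), the E box CACGTG in 13.6% (11.0% and 7.15%), the TATA box TATAAA in 9.09% (9.38% and 13.6%) and the NRF1 motif (GCGCA joined to its reverse complement TGCGC) in 1.52% (1.98% and 0.971%). Of the 11 genes that rose and had a window, 0 held the YY1, E box or NRF1 motif and 1 held the TATA box. The inverted repeat of AGGTCA with 1 base between the repeats is the classical element bound by FXR with its partner RXR. It was in none of the windows of the 66 genes and in 3 of all 32851 windows. These matches describe the letters of the windows, and elements farther from the start were not searched.

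The same fit gave 136 further genes of splicing and snRNP biology from 9 lists. In all 16 were called (11.8%, against 13.9% of all genes tested), of which 6 rose (4.41%, background 6.17%) and 10 fell (7.35%, background 7.71%), shares near the background, with a median log2 fold change of 0.01. Assembly of the Sm ring depends on the SMN complex and on the methylosome, which methylates Sm proteins. Of 17 assembly genes 1 rose and 2 fell. Wdr77, a methylosome subunit, rose from 152 ± 6.03 to 171 ± 6.41 CPM (log2 fold change 0.16, edgeR adjusted p = 0.0214). Prmt5, the methyltransferase that works with it, fell from 95.9 ± 5.34 to 80.5 ± 0.758 CPM (log2 fold change -0.25, edgeR adjusted p = 0.00334). In Prmt5 the lowest WT value, 90.7 CPM, lay above the highest FXR-/- value, 81.6 CPM. Gemin7, of the SMN complex, fell from 27.0 ± 1.53 to 22.3 ± 1.05 CPM (log2 fold change -0.28, edgeR adjusted p = 0.00845), and Smn1 itself did not pass (24.9 ± 1.77 and 24.3 ± 1.24 CPM, log2 fold change -0.04, adjusted p = 0.715; SD, n = 5 each throughout).

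Among 17 snRNP proteins outside the name rule, Ppih, a cyclophilin of the U4/U6 particle, rose (32.3 ± 2.86 to 37.7 ± 1.46 CPM, log2 fold change 0.22, edgeR adjusted p = 0.0365) and Sart1, of the U4/U6.U5 particle, fell (log2 fold change -0.15, edgeR adjusted p = 0.0410). U2af2, the polypyrimidine tract binder, was the 1 fall among 16 genes of splice site recognition (295 ± 5.27 to 271 ± 7.29 CPM, log2 fold change -0.12, edgeR adjusted p = 0.0341). None of 21 genes of the catalytic steps passed by edgeR or by DESeq2, and 3 had an unadjusted edgeR p under 0.05.

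Kinases and cofactors of SR proteins gave 1 rise and 2 falls in 18 genes. Srpk2, a kinase that phosphorylates SR proteins, fell from 264 ± 17.2 to 209 ± 18.4 CPM (log2 fold change -0.34, edgeR adjusted p = 0.00681), with the highest FXR-/- value (232 CPM) below the lowest WT value (239 CPM). Rnps1, a protein of the exon junction complex, measured 71.4, 73.5, 80.4, 80.1 and 80.3 CPM in WT and 73.0, 50.8, 50.1, 51.8 and 53.0 CPM in FXR-/-. FXR-/- library 8 lay within the WT range and the other 4 were far below it (log2 fold change -0.47, SE 0.0958, edgeR adjusted p = 0.00866). Pnn, a nuclear speckle protein, rose from 238 ± 12.5 to 268 ± 8.12 CPM (log2 fold change 0.17, edgeR adjusted p = 0.0214).

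Of 26 tissue splicing regulators 2 rose and 1 fell. Ptbp2, a regulator needed in neurons and male germ cells, rose from 105 ± 5.78 to 125 ± 12.6 CPM (log2 fold change 0.25, edgeR adjusted p = 0.0311). Rbm24, a muscle regulator, rose from 2.27 ± 0.847 to 4.44 ± 1.81 CPM (log2 fold change 0.97, SE 0.290, edgeR adjusted p = 0.0453), and Celf3, a neural one, fell from 1.64 ± 0.329 to 0.770 ± 0.179 CPM (log2 fold change -1.09, SE 0.191, edgeR adjusted p = 0.00426). Both are low in this tissue. Among 8 tested hnRNP genes with other names Pcbp1 fell (log2 fold change -0.15, edgeR adjusted p = 0.0479). Of the 8 partners of the Lsm1 ring Edc3 rose and Dcp2 fell (log2 fold changes 0.13 and -0.13, edgeR adjusted p-values 0.0238 and 0.0258), and of 8 genes of histone mRNA processing Sympk fell (log2 fold change -0.25, edgeR adjusted p = 0.00609).

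Of the 16 companion calls, Prmt5, Gemin7, Srpk2, Rnps1, Celf3 and Sympk kept an adjusted p under 0.05 without each single library, and 10 did not, among them all 6 rises. Wdr77 lost its call without FXR-/- library 11 or 12 or WT library 4 (up to 0.0555), Pnn without FXR-/- library 11 or WT library 4 or 9 (up to 0.0591) and Edc3 without FXR-/- library 9 or 12 or WT library 4 (up to 0.0597). Ptbp2 kept its call in 4 of 10 cases (up to 0.0780), Ppih in 4 (up to 0.0846) and Rbm24 in 3 (up to 0.104). Among the falls, Dcp2 and Sart1 kept theirs in 4 of 10 cases (up to 0.0729 and 0.0958), U2af2 in 3 (up to 0.0999) and Pcbp1 in 2 (up to 0.127).

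How firmly each of the 13 calls held was measured by leaving out each library in turn. Snrpb2, Snrpd2, Snrpg and Lsm8 kept an adjusted p under 0.05 in all 10 cases, with highest values of 0.00352, 0.0348, 0.0437 and 0.0157. Srsf3 lost its call without FXR-/- library 11 or WT library 4, 6 or 9 (up to 0.0573), and Hnrnpdl without FXR-/- library 11 or 12 or WT library 4 or 6 (up to 0.0749). Snrpe lost it without FXR-/- library 11 or 12 or WT library 3, 4 or 6 (up to 0.0758). The other calls were less firm. Hnrnpul1 and Lsm3 kept theirs in 3 of 10 cases (up to 0.0695 and 0.109), Lsm4, Sf3b6 and Prpf38a in 2 of 10 (up to 0.103, 0.111 and 0.112) and Lsm5 in 1 of 10, without FXR-/- library 8 (otherwise up to 0.104). Directions did not change in any of these cases. Without FXR-/- libraries 9 and 10 together, the highest in adipocyte markers, the calls of Srsf3 (adjusted p = 0.0599), Lsm4 (0.0679), Lsm5 (0.0897), Sf3b6 (0.0633) and Hnrnpul1 (0.0800) were lost, and the other 8 were kept. Lsm5 and Prpf38a also missed the threshold with limma-voom (0.0502 and 0.0564), and Lsm5, Prpf38a and Sf3b6 with no filter on low counts (0.0527, 0.0619 and 0.0582). Prpf38a missed it with DESeq2's type of size factors in edgeR (0.0502). With limma on the authors' scaling, Lsm5, Prpf38a and Sf3b6 were not called.

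**Figure D4:**
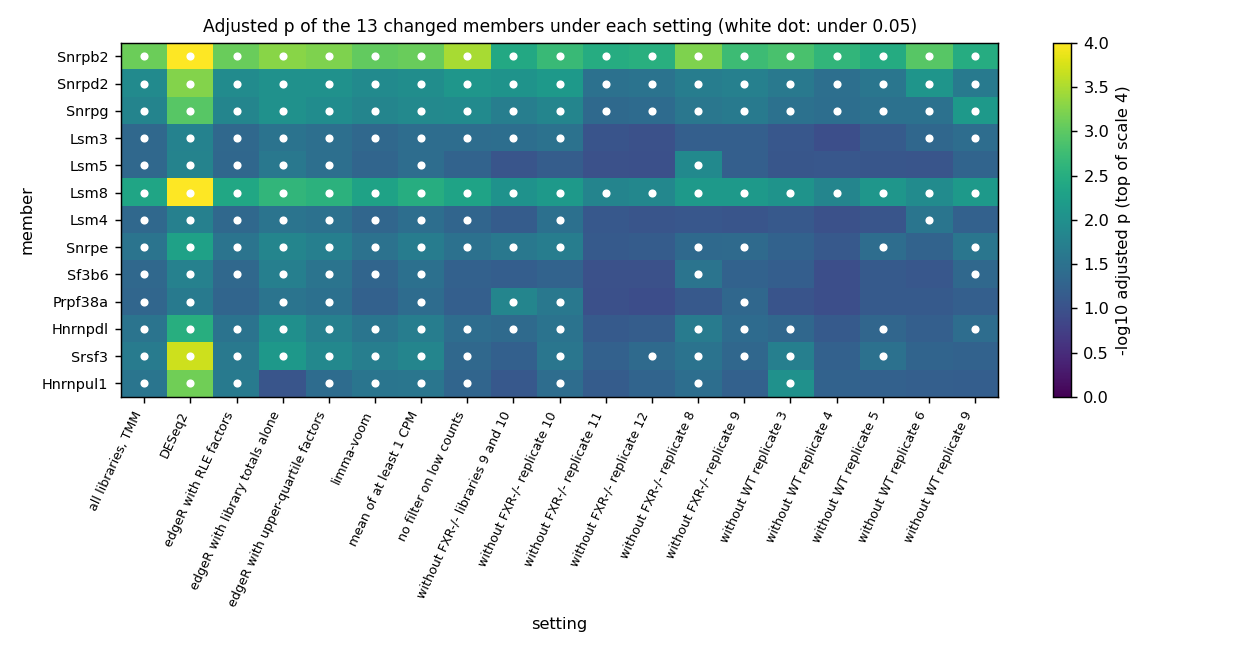
Adjusted p-value (colour, as −log10, scale ending at 4) of the 13 genes with all libraries, under each alternative analysis except limma on the authors' scaling, and without each library; a white dot marks a value under 0.05. Snrpb2, Snrpd2, Snrpg and Lsm8 carry a dot in every column, and the columns without FXR-/- library 11 or WT library 4 hold 4 dots each.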

How the data were processed

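Testis RNA of 5 WT and 5 FXR-/- mice at postnatal day 10 was measured with 1 library per mouse. Per the labels' protocols, RNA was taken with Trizol from frozen testes and libraries were made with an Illumina TruSeq RNA kit. Per the submitters' processing notes, FastQC 0.10.1, CASAVA, Bowtie, TopHat2 2.0.10, Bowtie2 2.1.0 and the build mm10 (GRCm38) were used. What counted the reads, on which annotation, and how strand and multi-mapped reads were handled is not given in the sources used here.

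Raw counts per gene were deposited by the authors, and these whole-number counts were tested as they stand. The deposited table also holds the authors' normalized expression, of which only the digits were readable. From these, 1 scaling factor per library was recovered, taken as the factor nearest 1. Raw counts multiplied by this factor were used in 1 alternative, with limma on the scale log2(value + 1) and no count model. That alternative is thus a rescaling of the same raw counts. No column belonged to other samples.

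Low genes were removed with filterByExpr, libraries were scaled by TMM, and genotype was tested with edgeR 4.0.16 in R 4.3.3 (quasi-likelihood, two-sided, Benjamini-Hochberg over 18559 genes); every adjusted p in the text without another name is from this test, and 0.05 was the threshold. The step was tested on simulated counts. Alternatives used DESeq2 1.42.0, limma 3.58.1, other scaling and filters, and fewer libraries. List levels are means of log2 CPM with a prior count of 2. Exon lengths and overlaps came from GENCODE M21.

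The genes and lists were chosen with earlier results of these data known. All changed genes of the set are named, the 2 most abundant of a group with none, the 2 highest and 2 lowest fitted changes, and up to 3 changed genes of each companion list; other genes were added after their values were seen, to complete their group. For 1 gene of the set, which stays in all counts and medians, no value of its own is reported here.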

Additional observations from a re-analysis of the deposited data

Results flagged for a closer look

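In 8 of 158 groups of 5 libraries (76 of the 77 genes and the main lists, in each genotype), 1 library stood apart from the other 4 by Dixon's test at the 95% level. Chance flags about 1 in 20 groups. FXR-/- library 8 was the one apart in 3 of them. It was low in Hnrnph3 (88.5 CPM, others 101 to 105) and high in Lsm12 (65.7 CPM, others 60.7 to 61.8) and Prpf19 (279 CPM, others 257 to 260.3). FXR-/- library 9 was low in 3 genes, in Hnrnpd at 177 CPM (others 194 to 198), in Sf3a3 at 102 CPM (others 107 to 108) and in Snrpa1 at 49.6 CPM (others 52.2 to 53.3). FXR-/- library 10 was high in Hnrnpm at 325 CPM (others 306 to 311), and WT library 3 was low in Lsm12 at 54.9 CPM (others 62.1 to 63.2). None of these genes passed the main test.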

How the results depend on the processing

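No paired analysis was made, because the labels do not state any pairing or relation between the mice. Leaving out each library in turn gave 1427 to 2867 changed genes in all, 4 to 11 rises and 0 to 1 falls among the 77 genes, 3 to 6 rises among the ring genes, a ring median of 0.11 to 0.17, an SR and hnRNP median of -0.02 to 0.01 and a difference of 0.11 to 0.18. The 12 rises became 4 without FXR-/- library 11 or WT library 4, 5 without FXR-/- library 12 and 6 without WT library 3 or 6. The 7 ring rises became 3 without FXR-/- library 11 or 12 or WT library 3 or 4, and 4 without FXR-/- library 9 or WT library 5. All changed genes became 1427, 1635 and 1601 without FXR-/- library 11, FXR-/- library 12 and WT library 4. The cause was not tested. Falls numbered 2 with DESeq2 (Hnrnpm joined Hnrnpul1), and 0 with library totals or without FXR-/- libraries 9 and 10. With library totals the SR and hnRNP median was 0.0364, and 61.5% of all changed genes were higher, against 44.5% with TMM and 53% with upper-quartile factors. The median over all genes then moved from 0.01 to 0.05. Rises numbered 8 to 15 across the alternatives other than the removal of 1 library. Of 234 values for the 13 called genes of the set, 162 kept the call, 72 lost it and 0 turned direction. Limma on the authors' scaling is not part of these values, and it called 9 rises and 1 fall in the set. Precision was lowest for Srsf12 (SE 0.149), the gene with the fewest counts.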
